A study of Homo sapiens with 12 samples.

Results

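The 44 genes described here encode the chains of the human collagens. They were taken by a rule on the symbol, chosen with earlier results of these data known. Every gene of the count table whose symbol is COL, a number, A and a number was included, out of 56609 symbols. Of these, 34 had enough counts to be tested, among 21698 tested genes in all. RNA was sequenced from A375, an established human melanoma line, in 4 groups of 3 replicates. The groups were wild-type cells with DMSO, wild-type cells with 500 nM JQ1, MAPKAPK2-knockout cells with DMSO and MAPKAPK2-knockout cells with 500 nM JQ1, each kept for 48 h. MAPKAPK2 encodes the stress-activated kinase MK2, and the knockout was made with CRISPR/Cas9. JQ1 displaces the BET bromodomain proteins, which read acetylated histones, from chromatin. Whether the knockout line was a single clone, and whether replicates were separate cultures, is not given in the sources used here, so p-values measure only the spread between these samples, which may be technical. All 4 groups share the A375 background.

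Collagens are secreted or membrane-bound proteins in which 3 chains wind into a triple helix. Fibrillar collagens form banded fibrils, network collagens form the sheets of basement membranes, beaded-filament collagens form microfibrils around cells, and the fibril-associated collagens with interrupted triple helices (FACIT) decorate fibrils. Before secretion the chains are hydroxylated, glycosylated and folded in the endoplasmic reticulum, and after it they are trimmed and cross-linked. Many types need chains from more than 1 gene, so the levels of partner genes are described together below. In skin, most fibrillar collagen is made by fibroblasts, while melanoma cells are known to produce and to remodel matrix of their own.

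Promoters are shown for 6 members on which the results turn: the abundant and jointly read COL4A1 and COL4A2, COL12A1 and COL5A1, which moved in opposite directions with JQ1, and COL6A3 and COL13A1, which were lower in the knockout. Each window runs from 250 bases before to 50 bases after a start site of RefSeq on GRCh38.p14. It is written 5′ to 3′ on the gene's own strand. Windows were found by symbol for 32 of the 44 members. These 32 genes had 44 windows, and the window with the lowest coordinate was used for each gene. Capitals mark matches, on either strand, to the TATA box TATAAA, the CCAAT box CCAAT, the GC box GGGCGG, the AP-1 motif TGANTCA or the E-box CACGTG.

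COL4A1, chr13:110307108-110307407 (-): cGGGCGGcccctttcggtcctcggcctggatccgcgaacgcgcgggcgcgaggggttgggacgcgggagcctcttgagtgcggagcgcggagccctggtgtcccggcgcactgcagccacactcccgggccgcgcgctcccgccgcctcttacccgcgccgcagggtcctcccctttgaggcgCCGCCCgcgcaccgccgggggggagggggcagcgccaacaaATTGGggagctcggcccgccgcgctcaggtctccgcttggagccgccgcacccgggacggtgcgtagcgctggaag
COL4A2, chr13:110307034-110307333 (+): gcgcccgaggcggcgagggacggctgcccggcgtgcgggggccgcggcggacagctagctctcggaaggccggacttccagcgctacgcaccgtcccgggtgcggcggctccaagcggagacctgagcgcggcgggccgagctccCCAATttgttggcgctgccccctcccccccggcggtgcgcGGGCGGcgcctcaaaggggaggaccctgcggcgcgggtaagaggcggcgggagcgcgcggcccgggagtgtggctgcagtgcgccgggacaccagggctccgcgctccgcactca
COL12A1, chr6:75206004-75206303 (-): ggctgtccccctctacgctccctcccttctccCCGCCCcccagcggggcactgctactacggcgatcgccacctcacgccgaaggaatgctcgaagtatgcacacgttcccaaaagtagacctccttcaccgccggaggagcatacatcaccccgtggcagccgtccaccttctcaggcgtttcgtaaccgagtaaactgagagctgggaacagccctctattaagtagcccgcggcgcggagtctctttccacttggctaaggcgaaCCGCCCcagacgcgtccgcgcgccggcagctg
COL5A1, chr9:134641553-134641852 (+): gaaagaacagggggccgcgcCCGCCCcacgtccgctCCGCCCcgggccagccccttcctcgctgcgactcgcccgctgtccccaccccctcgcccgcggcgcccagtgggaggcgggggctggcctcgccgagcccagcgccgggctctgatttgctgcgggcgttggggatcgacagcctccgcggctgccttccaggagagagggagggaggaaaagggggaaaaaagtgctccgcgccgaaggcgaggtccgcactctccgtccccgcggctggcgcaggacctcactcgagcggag
COL6A3, chr2:237414115-237414414 (-): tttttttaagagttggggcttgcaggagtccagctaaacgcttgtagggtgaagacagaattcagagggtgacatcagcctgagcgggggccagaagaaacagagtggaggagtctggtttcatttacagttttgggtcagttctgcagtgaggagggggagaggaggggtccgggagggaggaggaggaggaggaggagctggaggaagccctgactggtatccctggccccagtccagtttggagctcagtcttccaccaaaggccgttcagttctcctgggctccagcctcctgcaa
COL13A1, chr10:69801656-69801955 (+): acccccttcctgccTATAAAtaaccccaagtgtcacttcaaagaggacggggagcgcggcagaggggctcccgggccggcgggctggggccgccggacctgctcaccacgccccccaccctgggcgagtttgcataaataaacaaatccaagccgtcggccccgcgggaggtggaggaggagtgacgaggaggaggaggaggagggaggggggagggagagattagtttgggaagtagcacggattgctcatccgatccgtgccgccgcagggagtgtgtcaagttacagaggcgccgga

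COL4A1 and COL4A2 are read in opposite directions from start sites 127 bases apart, so their windows share 226 bases, and the capitals ATTGG in one and CCAAT in the other are the same bases. COL4A4 and COL4A3 lie head to head as well, with start sites 419 bases apart. GC boxes were present in 19 of the 32 collagen promoters (59.4%), against 45.0% of all 35116 promoters of that length. The 35116 include every window of a gene and the 32 only 1 per gene, so the shares are of unlike sets. CCAAT was found in 11 collagen promoters (34.4%), against 34.6% of all promoters, and TATAAA in 6 (18.8%), against 11.5%. TGANTCA and CACGTG were in 0 of the 32 windows, against 7.71% and 7.26% of all promoters. The COL13A1 window held a TATAAA 236 bases before the start site, the COL12A1 and COL5A1 windows held 2 GC boxes each, and the COL6A3 window held none of the motifs. These matches are descriptions of the sequence and not sites of binding.

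The libraries held 25316899 to 34594295 estimated counts, and collagen genes took 0.118% to 0.169% of them. MAPKAPK2 was at 89.6 ± 2.2 counts per 1000000 (CPM; mean ± SD, n = 3) in wild type with DMSO and 117 ± 4.31 with JQ1, and 12.4 ± 1.15 and 14.4 ± 1.61 in the knockout, which goes with the genotype labels. SOX10, a melanocyte lineage factor, was present in every group (437 to 563 CPM). The pigment genes MLANA and PMEL had group means of at most 1.18 CPM, and TYR, TYRP1 and DCT were too low to be tested. Most of the summed level of 8 melanocyte markers was SOX10. The sum was 501 to 516 CPM in wild type with DMSO and 587 to 677 with JQ1. In the knockout it was 460 to 535 with DMSO and 560 to 766 with JQ1. It was higher with JQ1 without overlap. MITF averaged 43.1 CPM with DMSO and 39.2 with JQ1 in wild type, and 28.8 and 30.5 in the knockout. S100B averaged 29.3 and 36.7, and 40.0 and 48.7, in the same order. Neither gene overlapped between genotypes. Of 6 fibroblast markers, the defining THY1 and FAP were too low to be tested, and FAP was at 0 in all 3 knockout JQ1 libraries. The summed level of the 6 was 21.8 to 23.1 CPM in wild type with DMSO and 14.1 to 16.4 with JQ1, and in the knockout 16.8 to 18.3 with DMSO and 8.99 to 11.8 with JQ1, so the sum was lower with JQ1 and lower in the knockout, without overlap. Its members did not move together: PDGFRA rose with JQ1 in wild type (0.64 log2 units, adjusted p = 0.00161) and in the knockout (0.61 log2 units, adjusted p = 0.00314), while LUM (-2.92 and -2.80 log2 units) and PDGFRB (-1.41 and -1.83) fell in both, and DCN fell in wild type (-1.48 log2 units, adjusted p = 0.00212). The summed level of 4 endothelial markers (PECAM1, CDH5, VWF and KDR), most of it KDR, was 9.91 to 12.5 CPM in wild type with DMSO and 12.1 to 13.03 with JQ1, and in the knockout 4.04 to 5.13 with DMSO and 6.09 to 7.996 with JQ1, lower in the knockout without overlap. Of 5 epithelial markers, the defining CDH1 was at 0 in every library, EPCAM had at most 2 counts and KRT5 at most 1, and the keratins KRT8 and KRT18, which were not called in any comparison, made up nearly all of the sum of 129.6 to 152 CPM in wild type with DMSO and 141 to 155 with JQ1, and in the knockout 153 to 163 with DMSO and 140.2 to 154 with JQ1. The summed level of 4 markers of undifferentiated melanoma (AXL, NGFR, SOX9 and EGFR) was 273 to 286 CPM in wild type with DMSO and 462 to 533 with JQ1, and in the knockout 201 to 234 with DMSO and 390.4 to 470.2 with JQ1, higher with JQ1 without overlap. Most of that sum was AXL (248 CPM on average in wild type with DMSO). The sum was lower in the knockout without overlap with DMSO, and the genotypes overlapped with JQ1. NGFR fell with JQ1 in wild type (-0.84 log2 units, adjusted p = 0.00069). In the knockout 3 of the 4 markers were called lower with DMSO and 3 with JQ1 (75% each), NGFR and SOX9 in both treatments. Of all tested genes 4.44% and 5.56% were called lower there. The part of these markers in the collagen differences was not tested, and in bulk RNA fewer cells of a kind and less RNA per cell cannot be told apart. Replicate 3 of knockout JQ1 stood apart: the chi-square per degree of freedom between replicates was 23.8 to 25.1 in the 2 pairs that include it and 3.21 to 7.05 in the other 10 pairs. It was the highest of its group for 21 of the 34 tested collagen genes (61.8%), against 41.4% of all tested genes. Among the 16 more abundant collagen genes it was the highest for 13 (81.2%), and all genes of like abundance were not counted. Its median ratio to the mean of the other 2 replicates was 1.24 for the 34, 1.36 for the 16 and 1.01 for all tested genes. Where leaving it out changed the call of a collagen gene, or moved a called value by over 1.5 times, the value without it is also given.

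Collagen expression in A375 cells was carried by a few chains. Summed over the members, the collagen level was 1518 ± 60.7 CPM in wild type with DMSO and 1391 ± 101 with JQ1, and in the knockout 1557 ± 94.2 with DMSO and 1478 ± 286 with JQ1 (SD over 3 libraries). The basement membrane chains COL4A1 and COL4A2 together made up 43.1% to 49.9% of the collagen counts of a library. A mean of at least 5 CPM in 1 or more groups was reached by 16 genes, 18 further genes were tested below that level, and 10 were too low to be tested. COL1A1, COL1A2 and COL3A1, the main fibrillar collagens of the dermis, were near 0: COL1A1 had at most 1.06 CPM as a group mean, COL1A2 had 2, 4 and 3 counts in the wild-type DMSO libraries and 0 in the other 9, and COL3A1 had 0 to 5 counts.

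**Figure D1:**
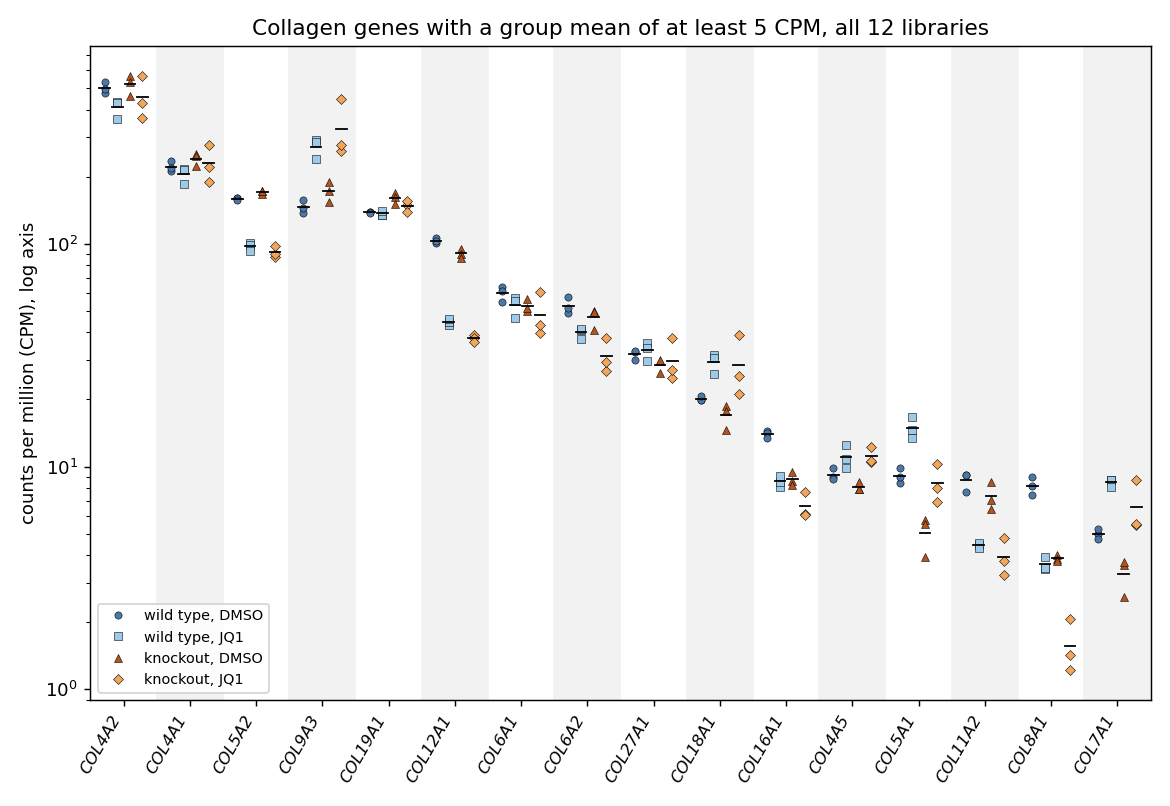
Each point is the level of 1 collagen gene in 1 library, in CPM on a log axis, and each line is the mean of the 3 libraries of a group; the 16 genes with a group mean of at least 5 CPM are shown. COL4A2 is the highest in wild-type DMSO at 501 CPM, the COL12A1 and COL5A2 points of both JQ1 groups lie below those of both DMSO groups, and the COL9A3 points lie above them.

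Levels of different genes were compared per kilobase of the longest coding transcript of GENCODE 29. In wild-type DMSO the order was led by COL4A2 (77.2 ± 4.58 CPM per kilobase, SD, n = 3), COL9A3 (58.7 ± 4.08), COL4A1 (33.5 ± 1.7), COL5A2 (22.5 ± 0.355) and COL19A1 (22.2 ± 0.095). COL6A2 (15.2 ± 1.27), COL6A1 (14.2 ± 1.14) and COL12A1 (8.79 ± 0.253) followed. The libraries of COL5A2 and COL19A1 overlapped, as did those of COL6A2 and COL6A1; the other neighbours in this order did not. In wild-type JQ1, COL9A3 was first at 109 ± 11.3 CPM per kilobase and COL4A2 second at 63.04 ± 6.0, without overlap. In knockout JQ1 COL9A3 also led (131 ± 41.1, against 69.98 ± 15.9 for COL4A2), and in knockout DMSO the 2 overlapped. The order depends on the length used: with the median coding transcript COL19A1 ranked 2 and COL9A3 ranked 4 in every group.

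JQ1 changed many collagen genes, and more of them downward. In wild-type cells 13 of the 34 tested members fell (38.2%) and 4 rose (11.8%), where 16.2% of all tested genes fell and 16.9% rose (edgeR quasi-likelihood test, adjusted p under 0.05). In knockout cells 12 fell (35.3%) and 6 rose (17.6%), where 17.8% of all tested genes fell and 16.7% rose. The median log2 fold change of the tested members was -0.41 in wild type and -0.36 in the knockout, beside -0.03 and -0.00 over all tested genes. The comparisons of the 2 genotypes use different libraries, and 14 members were called in both, 4 higher and 10 lower in each. They are 82.4% of the wild-type calls and 77.8% of the knockout calls. The matching shares of all tested genes were not computed, so this overlap is not shown to be particular to collagens. Without replicate 3 of knockout JQ1 the counts were 14 lower and 5 higher in wild type, since the spread is shared by all groups, and 14 lower and 6 higher in the knockout. The shares of all genes called without that replicate are not set beside these counts, so they describe the members only. Of the 16 members of at least 5 CPM, 6 fell in each genotype (37.5%). At that level 4 rose in wild type (25%) and 5 in the knockout (31.25%), so falls and rises were closer in number. Of the 18 tested members below it, 7 fell in wild type (38.9%) and 6 in the knockout (33.3%), while 0 and 1 (5.56%) rose. The shares of all genes at these levels were not computed. The median changes were -0.14 and -0.12 at the higher level and -0.52 and -0.52 at the lower one, and the difference between the levels was not tested. The members counted as lower in both genotypes include COL14A1, which passed the filter on low counts only through the DMSO libraries, where it was higher.

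**Figure D2:**
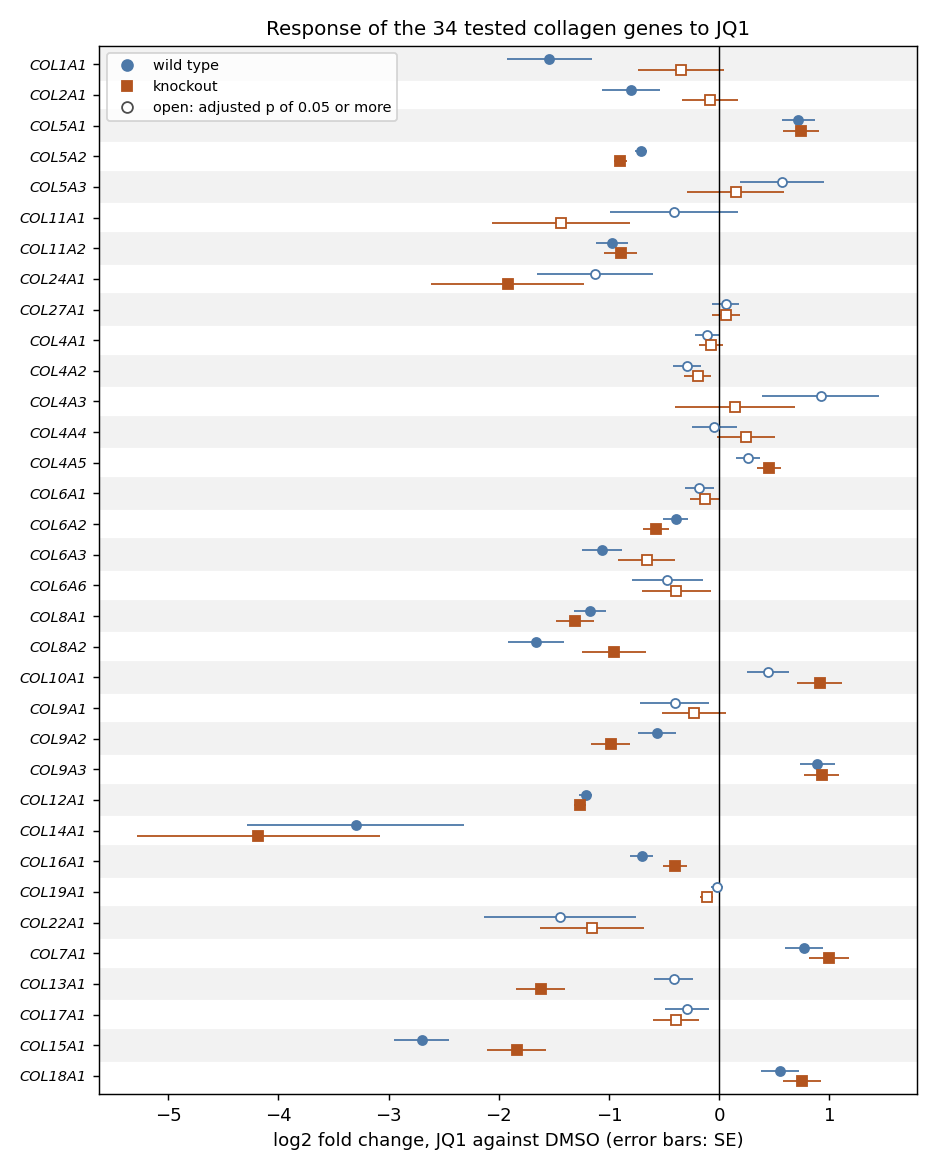
The log2 fold change of each tested collagen gene with JQ1 is plotted with its SE for wild-type cells (circles) and knockout cells (squares), ordered by class; filled symbols have an adjusted p under 0.05. COL15A1, COL12A1, COL8A1 and COL8A2 lie to the left in both genotypes, and COL9A3, COL7A1, COL5A1 and COL18A1 to the right.

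Among fibrillar chains, the partners COL5A2 and COL5A1 went opposite ways. They build type V collagen, which starts and limits the width of collagen fibrils. COL5A2 was at 161, 160.0 and 156 CPM in wild type with DMSO and 101, 98.7 and 92.5 with JQ1. In knockout cells COL5A2 was at 172, 167 and 172 with DMSO and 87.3, 89.5 and 97.9 with JQ1. The JQ1 libraries were all below the DMSO libraries, and the change of COL5A2 on the log2 scale was -0.71 log2 units (SE 0.06, adjusted p = 2.96e-07) in wild type and -0.90 log2 units (SE 0.06, adjusted p = 2.36e-08) in the knockout. COL5A1 was at 8.41, 9.81 and 8.96 CPM in wild type with DMSO and 16.6, 14.6 and 13.5 with JQ1. In knockout cells COL5A1 was at 3.91, 5.73 and 5.51 with DMSO and 6.93, 7.99 and 10.3 with JQ1. Here the JQ1 libraries were above the DMSO libraries of their own genotype, with changes of 0.72 log2 units (SE 0.15, adjusted p = 0.00203) and 0.74 log2 units (SE 0.16, adjusted p = 0.00265), or 0.57 log2 units (adjusted p = 0.0109) in the knockout without replicate 3. COL11A2, a chain of the cartilage collagen type XI that is closely related to type V, was at 9.21, 9.14 and 7.72 CPM in wild type with DMSO and 4.46, 4.53 and 4.29 with JQ1. In knockout cells COL11A2 was at 7.09, 8.55 and 6.42 with DMSO and 3.77, 3.25 and 4.78 with JQ1. It fell in both genotypes, with changes of -0.97 log2 units (SE 0.15, adjusted p = 0.000119) and -0.89 log2 units (SE 0.15, adjusted p = 0.000285), with no overlap between drug groups. COL27A1, a minor fibrillar collagen, was at 32.8, 32.9 and 30.01 CPM in wild type with DMSO and 35.8, 34.1 and 29.7 with JQ1. In knockout cells COL27A1 was at 26.2, 29.7 and 30.1 with DMSO and 24.98, 26.98 and 37.6 with JQ1. Its libraries overlapped between drug groups, and its changes were 0.06 log2 units, adjusted p = 0.765 in wild type and 0.06 log2 units, adjusted p = 0.743 in the knockout, or -0.14 log2 units (adjusted p = 0.272) there without replicate 3.

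The remaining fibrillar genes were scarce. COL1A1, the main chain of type I collagen, had group means of 1.06 ± 0.247 CPM in wild type with DMSO and 0.365 ± 0.139 with JQ1. In knockout cells COL1A1 averaged 0.681 ± 0.184 with DMSO and 0.521 ± 0.289 with JQ1 (SD, n = 3). It fell in wild type (-1.54 log2 units, SE 0.39, adjusted p = 0.00637), and in the knockout its value was -0.34 log2 units, adjusted p = 0.55. Replicate 3 was the highest of the knockout JQ1 libraries of COL1A1 (0.343, 0.365 and 0.855 CPM), and without it the value was -0.93 log2 units (adjusted p = 0.1). COL2A1, the cartilage collagen, had means of 1.33 ± 0.451 CPM in wild type with DMSO and 0.754 ± 0.0811 with JQ1. In knockout cells COL2A1 averaged 1.32 ± 0.205 with DMSO and 1.24 ± 0.221 with JQ1. Its call in wild type (-0.80 log2 units, SE 0.26, adjusted p = 0.0309) was lost without any of 5 libraries. The adjusted p was then 0.0639 and 0.165 without replicates 1 and 2 of wild-type DMSO, and 0.0508, 0.0884 and 0.0869 without replicates 1, 2 and 3 of wild-type JQ1. With DESeq2 it was 0.0551. Without replicate 2 of wild-type DMSO the change was -0.53 log2 units. In the knockout COL2A1 gave -0.08 log2 units, adjusted p = 0.849. COL24A1 had means of 1.36 ± 0.575 CPM in wild type with DMSO and 0.615 ± 0.191 with JQ1. In knockout cells COL24A1 averaged 0.761 ± 0.572 with DMSO and 0.202 ± 0.162 with JQ1. Its knockout libraries overlapped between drug groups. The call there (-1.92 log2 units, SE 0.70, adjusted p = 0.0453) was lost without any of 8 libraries. The adjusted p then ran from 0.054 without replicate 2 of wild-type JQ1 to 0.226 without replicate 3 of knockout DMSO. Without replicate 3 of knockout JQ1 it was 0.143, with only the compared groups in the fit 0.0794, and with limma on the authors' normalized signal 0.0733. In wild type COL24A1 gave -1.13 log2 units, adjusted p = 0.12, and was called without replicate 1 of knockout DMSO (adjusted p = 0.0479), with only the compared groups (0.019) and with no filter on low counts (0.00929). COL5A3 and COL11A1 stayed below 1 CPM in every group (group means of 0.315 to 0.617 and 0.137 to 0.396 CPM) and passed no test of JQ1.

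The changes of the abundant basement membrane chains with JQ1 were small, and whether COL4A2 was called depended on the fit. COL4A2 was at 474, 533 and 497 CPM in wild type with DMSO and 435, 429 and 365 with JQ1. In knockout cells COL4A2 was at 460.1, 568 and 534 with DMSO and 366, 429 and 568 with JQ1. COL4A1, with which it forms the type IV collagen common to basement membranes, was at 212, 234 and 219 CPM in wild type with DMSO and 217, 215 and 186 with JQ1. In knockout cells COL4A1 was at 224, 253 and 247 with DMSO and 189, 221 and 278 with JQ1. In wild type the COL4A2 JQ1 libraries lay below the DMSO libraries but the test was not passed (-0.29 log2 units, adjusted p = 0.0934), and the COL4A1 libraries overlapped (-0.11 log2 units, adjusted p = 0.49). The knockout values were -0.20 log2 units, adjusted p = 0.263 for COL4A2 and -0.07 log2 units, adjusted p = 0.668 for COL4A1. These outcomes depend on the fit and on replicate 3 of knockout JQ1. In wild type COL4A2 was called lower with only the compared groups in the fit (adjusted p = 0.00282) and with no filter on low counts (0.00287). It was also called there with library totals as the only scaling (0.0139), and in the knockout with no filter (0.0474). Without replicate 3 of knockout JQ1, COL4A2 was lower with JQ1 in wild type (-0.29 log2 units, adjusted p = 0.0116) and in the knockout (-0.39 log2 units, adjusted p = 0.00451), and COL4A1 in the knockout (-0.23 log2 units, adjusted p = 0.0363). Without replicate 1 of knockout JQ1, COL4A2 was likewise called in wild type (-0.29 log2 units, adjusted p = 0.045), while the knockout values were -0.06 log2 units (adjusted p = 0.743) for COL4A2 and 0.05 log2 units (adjusted p = 0.725) for COL4A1. COL4A5, a chain of specialised basement membranes, was at 8.97, 9.84 and 8.8 CPM in wild type with DMSO and 12.4, 10.8 and 9.88 with JQ1. In knockout cells COL4A5 was at 7.95, 7.93 and 8.5 with DMSO and 10.5, 10.6 and 12.2 with JQ1. It rose in the knockout (0.45 log2 units, SE 0.11, adjusted p = 0.00402), and its value in wild type was 0.26 log2 units, adjusted p = 0.0705. The latter was called without replicate 3 of wild-type JQ1 (adjusted p = 0.0345) or of knockout JQ1 (adjusted p = 0.0429). COL4A3 (0.183 to 0.344 CPM as group means) and COL4A4, partners of COL4A5 in the kidney, passed no test of JQ1.

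Type VI collagen, the beaded filament of most connective tissue, is built from COL6A1, COL6A2 and COL6A3. COL6A1 was at 54.6, 63.9 and 61.5 CPM in wild type with DMSO and 57.1, 55.4 and 46.7 with JQ1. In knockout cells COL6A1 was at 49.7, 56.6 and 51.6 with DMSO and 39.9, 43.1 and 60.8 with JQ1. Its drug groups overlapped, with values of -0.18 log2 units, adjusted p = 0.325 in wild type and -0.13 log2 units, adjusted p = 0.484 in the knockout. Without replicate 3 of knockout JQ1 the latter was -0.34 log2 units (adjusted p = 0.00961). COL6A2 was at 48.9, 57.5 and 51.5 CPM in wild type with DMSO and 41.1, 41.6 and 37.5 with JQ1. In knockout cells COL6A2 was at 40.9, 49.99 and 49.5 with DMSO and 26.9, 29.6 and 37.7 with JQ1. It fell in both genotypes, with changes of -0.39 log2 units (SE 0.11, adjusted p = 0.0142) and -0.57 log2 units (SE 0.11, adjusted p = 0.00125), with no overlap. The wild-type call was lost without replicate 2 of wild-type DMSO (adjusted p = 0.0673) or replicate 3 of wild-type JQ1 (adjusted p = 0.0607). COL6A3, the chain with the longest globular ends, was at 3.46, 3.47 and 3.0 CPM in wild type with DMSO and 1.29, 1.82 and 1.66 with JQ1. In knockout cells COL6A3 was at 0.834, 0.687 and 0.597 with DMSO and 0.343, 0.487 and 0.507 with JQ1. It fell in wild type (-1.06 log2 units, SE 0.18, adjusted p = 0.000402), and its value in the knockout, where few counts remained, was -0.66 log2 units, adjusted p = 0.0662, or 0.0304 with library totals as the only scaling. COL6A6 had group means of 0.571 to 0.935 CPM and passed no test.

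Both chains of type VIII collagen, a network collagen of vessel walls and the cornea, fell with JQ1. COL8A1 was at 7.48, 8.21 and 8.96 CPM in wild type with DMSO and 3.49, 3.93 and 3.52 with JQ1. In knockout cells COL8A1 was at 4.01, 3.85 and 3.76 with DMSO and 1.22, 2.07 and 1.42 with JQ1. Every JQ1 library was below the DMSO libraries of its genotype. Its changes were -1.17 log2 units (SE 0.15, adjusted p = 2.19e-05) and -1.31 log2 units (SE 0.17, adjusted p = 2.81e-05). COL8A2 had means of 2.74 ± 0.382 CPM in wild type with DMSO and 0.857 ± 0.22 with JQ1. In knockout cells COL8A2 averaged 1.23 ± 0.424 with DMSO and 0.628 ± 0.0981 with JQ1. Its changes were -1.66 log2 units (SE 0.25, adjusted p = 0.00015) and -0.95 log2 units (SE 0.29, adjusted p = 0.0194). The knockout call of COL8A2 was lost without replicate 3 of knockout DMSO (adjusted p = 0.107) or replicate 2 of knockout JQ1 (adjusted p = 0.0665). COL10A1, the related collagen of growth-plate cartilage, had means of 1.8 ± 0.0731 CPM in wild type with DMSO and 2.43 ± 0.457 with JQ1. In knockout cells COL10A1 averaged 1.42 ± 0.371 with DMSO and 2.67 ± 0.193 with JQ1. It rose in the knockout (0.91 log2 units, SE 0.20, adjusted p = 0.00257), and its wild-type value was 0.44 log2 units, adjusted p = 0.0967.

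The FACIT genes held both members that fell and the most abundant member that rose. COL12A1, whose product links type I fibrils to other matrix proteins, was at 106, 100.2 and 103 CPM in wild type with DMSO and 43.4, 44.3 and 45.9 with JQ1. In knockout cells COL12A1 was at 94.7, 89.9 and 86.7 with DMSO and 38.99, 37.7 and 36.4 with JQ1. It fell 2.31-fold in wild type (-1.21 log2 units, SE 0.06, adjusted p = 1.74e-09) and 2.4-fold in the knockout (-1.26 log2 units, SE 0.06, adjusted p = 1.04e-09). COL9A3, a chain of the type IX collagen that coats cartilage fibrils, was at 137, 158 and 145 CPM in wild type with DMSO and 291, 285 and 239 with JQ1. In knockout cells COL9A3 was at 154, 189 and 172 with DMSO and 259.5, 277 and 446 with JQ1. All JQ1 libraries were above all DMSO libraries, with changes of 0.89 log2 units (SE 0.16, adjusted p = 0.000528) and 0.93 log2 units (SE 0.16, adjusted p = 0.000315), or 0.65 log2 units (adjusted p = 3.67e-05) in the knockout without replicate 3. Its partner COL9A2 had means of 3.62 ± 0.302 CPM in wild type with DMSO and 2.43 ± 0.303 with JQ1. In knockout cells COL9A2 averaged 3.88 ± 0.141 with DMSO and 1.96 ± 0.519 with JQ1. It fell in both genotypes, with changes of -0.56 log2 units (SE 0.17, adjusted p = 0.02) and -0.98 log2 units (SE 0.18, adjusted p = 0.000543). The wild-type call of COL9A2 was lost without replicate 1 or 2 of either wild-type group (adjusted p = 0.0659 and 0.0692 for DMSO, 0.0744 and 0.0771 for JQ1). COL9A1, the third chain of type IX, stayed between 0.61 and 1.11 CPM as group means and passed no test.

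COL16A1, a FACIT of fibrils and basement membrane zones, was at 14.5, 14.1 and 13.4 CPM in wild type with DMSO and 8.1, 8.54 and 9.11 with JQ1. In knockout cells COL16A1 was at 8.62, 9.48 and 8.29 with DMSO and 6.13, 6.05 and 7.72 with JQ1. It fell in wild type (-0.70 log2 units, SE 0.11, adjusted p = 0.000127) and in the knockout (-0.40 log2 units, SE 0.11, adjusted p = 0.0112), without overlap. Without replicate 2 of knockout JQ1 the knockout value was -0.34 log2 units (adjusted p = 0.05), at the threshold. COL19A1, also a FACIT of basement membrane zones, was at 139, 139 and 138 CPM in wild type with DMSO and 135, 135 and 141 with JQ1. In knockout cells COL19A1 was at 168, 161 and 151 with DMSO and 149.8, 156 and 139 with JQ1. It did not pass the test of JQ1 (-0.02 log2 units, adjusted p = 0.836 in wild type, -0.11 log2 units, adjusted p = 0.155 in the knockout), but was called lower in the knockout with library totals as the only scaling (-0.22 log2 units, adjusted p = 0.0139). COL14A1, a FACIT close to COL12A1, had 14, 1 and 10 counts in wild type with DMSO and 1, 1 and 0 with JQ1, and in the knockout 12, 4 and 10 with DMSO and 1, 0 and 0 with JQ1. It was called lower in wild type (adjusted p = 0.0182) and in the knockout (adjusted p = 0.00838). No fold is given at these counts, and since COL14A1 entered the test through the DMSO libraries alone, these calls are no support for a fall. The wild-type call was lost without replicate 1 or 3 of wild-type DMSO (adjusted p = 0.0928 and 0.0503) or of wild-type JQ1 (0.0511 and 0.0746), and with limma on the authors' normalized signal (0.078). COL22A1 had means of 0.0549 to 0.485 CPM and passed no test with all libraries. It was called lower with JQ1 in wild type without replicate 3 of wild-type DMSO (adjusted p = 0.049), and in the knockout with library totals as the only scaling (0.0482). COL22A1 passed the filter on low counts only through the knockout DMSO libraries, where it was highest, so the knockout call is no support for a fall.

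Of the collagens outside these classes, COL7A1 and COL18A1 rose and COL15A1 fell. COL7A1 encodes the anchoring fibrils that fasten the epidermis to the dermis, and was at 4.98, 5.24 and 4.73 CPM in wild type with DMSO and 8.73, 8.68 and 8.08 with JQ1. In knockout cells COL7A1 was at 2.6, 3.61 and 3.72 with DMSO and 5.45, 5.52 and 8.71 with JQ1. It rose by 0.77 log2 units (SE 0.17, adjusted p = 0.00282) and 1.00 log2 units (SE 0.18, adjusted p = 0.000575), or 0.73 log2 units (adjusted p = 0.00114) in the knockout without replicate 3. COL18A1, the basement membrane collagen from which endostatin is cut, was at 19.9, 19.97 and 20.6 CPM in wild type with DMSO and 31.8, 30.8 and 26.1 with JQ1. In knockout cells COL18A1 was at 14.6, 18.7 and 17.8 with DMSO and 21.1, 25.4 and 39.1 with JQ1. Its change in the knockout was 0.75 log2 units (SE 0.17, adjusted p = 0.00344), or 0.45 log2 units (adjusted p = 0.00558) without replicate 3. In wild type it was 0.55 log2 units (SE 0.17, adjusted p = 0.0216). That call was lost without replicate 1 or 2 of wild-type DMSO (adjusted p = 0.057 and 0.0551) or of wild-type JQ1 (0.0776 and 0.0669), and with library totals as the only scaling (0.0585). COL15A1, its relative of the same multiplexin group, was at 2.41, 3.26 and 3.46 CPM in wild type with DMSO and 0.66, 0.445 and 0.296 with JQ1. In knockout cells COL15A1 was at 1.67, 1.65 and 1.79 with DMSO and 0.571, 0.406 and 0.443 with JQ1. It fell 6.49-fold in wild type (-2.70 log2 units, SE 0.25, adjusted p = 1.5e-06) and 3.57-fold in the knockout (-1.84 log2 units, SE 0.27, adjusted p = 8.47e-05), with no overlap. COL13A1, a transmembrane collagen of cell adhesions, was at 4.65, 5.28 and 4.23 CPM in wild type with DMSO and 4.59, 3.08 and 2.93 with JQ1. In knockout cells COL13A1 was at 2.56, 2.95 and 2.95 with DMSO and 0.80, 0.771 and 1.14 with JQ1. It fell in the knockout (-1.62 log2 units, SE 0.22, adjusted p = 4.69e-05), and its wild-type libraries gave -0.41 log2 units, adjusted p = 0.093. In wild type it was called lower without replicate 1 of wild-type JQ1 (-0.65 log2 units, adjusted p = 0.0133) and with library totals as the only scaling (adjusted p = 0.0259). COL17A1, the transmembrane collagen of hemidesmosomes, had means of 0.904 to 1.2 CPM and passed no test.

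A smaller set of collagen genes was lower in the knockout cells than in wild type. With DMSO, 8 of the 34 tested members were lower in the knockout (23.5%) and 1 was higher (2.94%), where 4.44% of all tested genes were lower and 3.47% higher. With JQ1, 6 were lower (17.6%) and 0 higher, where 5.56% of all tested genes were lower and 3.01% higher. COL5A1, COL4A4, COL6A3, COL8A1 and COL13A1 were lower in both comparisons, which use different libraries. They are 55.6% of the DMSO calls and 83.3% of the JQ1 calls, and the matching shares of all tested genes were not computed. The median log2 fold changes of the tested members were -0.18 and -0.15, beside -0.00 over all tested genes in each. The JQ1 comparison depends on replicate 3 of knockout JQ1: without it 11 members were lower and 0 higher, and in DMSO 10 were lower and 2 higher. Of those 2, COL22A1 passed the filter on low counts only through the knockout DMSO libraries, where it was higher. The shares of all genes called without that replicate are not set beside these counts, so they describe the members only. The 5 added with JQ1 were COL7A1 (-0.63 log2 units, adjusted p = 0.0083), COL16A1 (-0.50 log2 units, adjusted p = 0.00691), COL6A2 (-0.50 log2 units, adjusted p = 0.00301), COL27A1 (-0.35 log2 units, adjusted p = 0.0186) and COL6A1 (-0.35 log2 units, adjusted p = 0.0223).

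**Figure D3:**
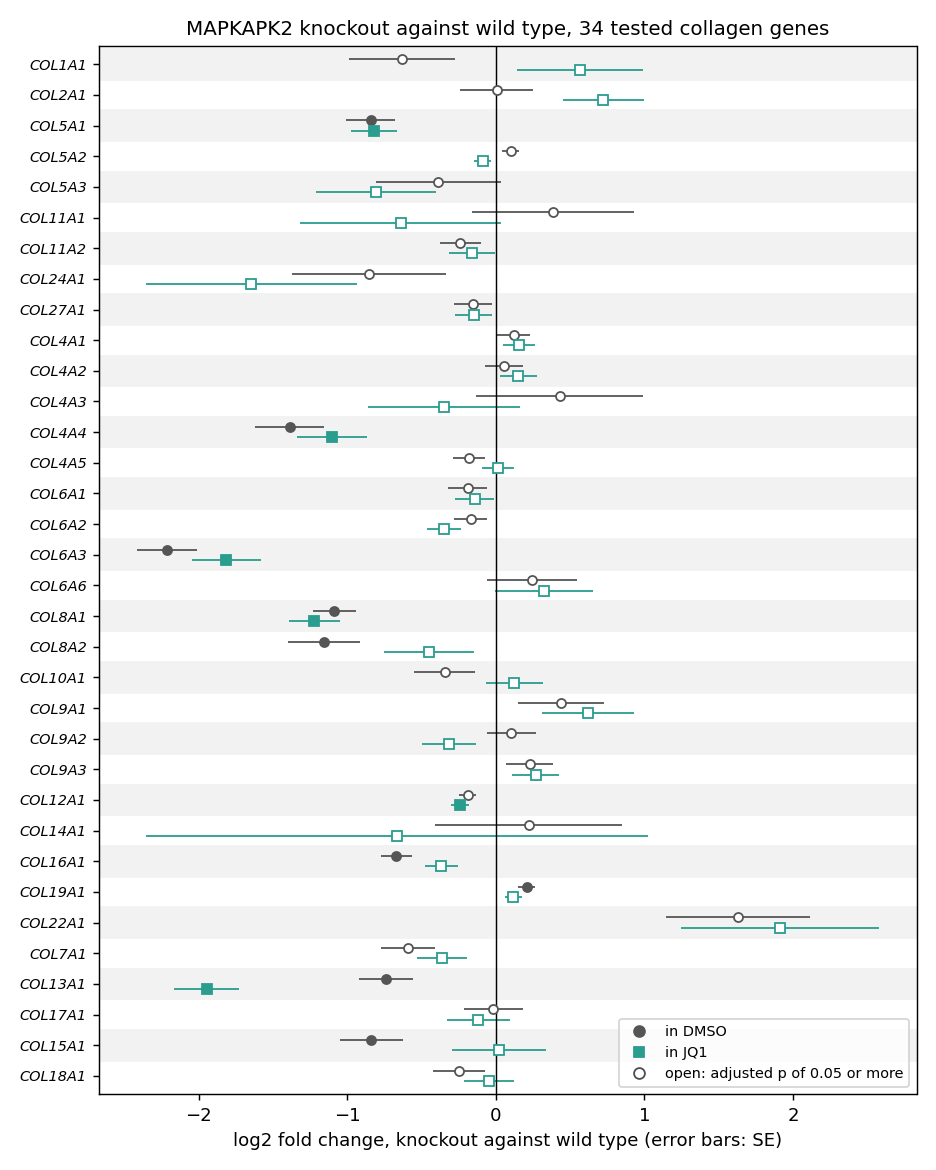
The log2 fold change of each tested collagen gene in knockout against wild-type cells is plotted with its SE, in DMSO (circles) and in JQ1 (squares), in the same order as the JQ1 plot; filled symbols have an adjusted p under 0.05. COL6A3, COL13A1, COL4A4, COL8A1 and COL5A1 lie to the left of 0 in both treatments, and COL19A1 in DMSO is the only filled symbol to the right.

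COL6A3 had the largest knockout difference among the called members in DMSO: its wild-type libraries were at 3.46, 3.47 and 3.0 CPM and its knockout libraries at 0.834, 0.687 and 0.597, a 4.65-fold lower level (-2.22 log2 units, SE 0.20, adjusted p = 5.33e-06). With JQ1 it was 3.51-fold lower (-1.81 log2 units, SE 0.23, adjusted p = 0.00014). In neither treatment did the genotypes overlap. The partner chains of type VI did not share this: COL6A1 differed by -0.19 log2 units, adjusted p = 0.476 and COL6A2 by -0.17 log2 units, adjusted p = 0.458 in DMSO. COL13A1 was lower by 0.74 log2 units (SE 0.18, adjusted p = 0.0208) in DMSO and by 1.95 log2 units (SE 0.22, adjusted p = 3.77e-05) with JQ1, where it was 3.85-fold lower. The DMSO call of COL13A1 was lost without replicates 1, 2 or 3 of knockout DMSO (adjusted p = 0.0834, 0.0567 and 0.0592) or 1 or 2 of wild-type DMSO (0.062 and 0.102).

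COL8A1 was lower by 1.09 log2 units (SE 0.14, adjusted p = 0.000221) in DMSO and 1.22 log2 units (SE 0.17, adjusted p = 0.000289) with JQ1, so its level in knockout JQ1 was the lowest of the 4 groups. COL5A1 was lower by 0.84 log2 units (SE 0.16, adjusted p = 0.00408) and 0.82 log2 units (SE 0.15, adjusted p = 0.0033), while its partner COL5A2 gave 0.10 log2 units, adjusted p = 0.361 and -0.09 log2 units, adjusted p = 0.427. COL4A4, a chain of the kidney type IV network, was at 1.1, 1.1 and 1.18 CPM in wild type with DMSO and 0.974, 1.22 and 1.09 with JQ1. In knockout cells COL4A4 was at 0.353, 0.446 and 0.491 with DMSO and 0.419, 0.527 and 0.57 with JQ1. Its genotypes did not overlap, and it was lower by 1.39 log2 units (SE 0.23, adjusted p = 0.00147) and 1.10 log2 units (SE 0.23, adjusted p = 0.00752). COL4A3, which lies head to head with it, had too few counts for a comparable statement (3 to 15 per library; 0.43 log2 units, adjusted p = 0.757 in DMSO). COL16A1 was lower in DMSO (-0.67 log2 units, SE 0.11, adjusted p = 0.000924), and with JQ1 its value was -0.37 log2 units, adjusted p = 0.0555. COL8A2 was lower in DMSO (-1.16 log2 units, SE 0.25, adjusted p = 0.00779), with -0.45 log2 units, adjusted p = 0.456 in JQ1.

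COL15A1 was called lower in DMSO (-0.84 log2 units, SE 0.21, adjusted p = 0.0241). That call was lost without any of the 3 knockout DMSO libraries (adjusted p = 0.0802, 0.089 and 0.0695) or without replicate 2 or 3 of wild-type DMSO (0.0989 and 0.12), and with limma on the authors' normalized signal (0.105). COL12A1 was slightly lower with JQ1 (-0.24 log2 units, SE 0.06, adjusted p = 0.0171). The call was lost without replicate 2 (adjusted p = 0.0562) or 3 (0.072) of wild-type JQ1, and with only the compared groups in the fit (0.131). In DMSO it gave -0.19 log2 units, adjusted p = 0.0523, or 0.0159 without replicate 3 of knockout JQ1. The single higher member was COL19A1 in DMSO (0.21 log2 units, SE 0.06, adjusted p = 0.0373). That call was lost without any of 7 libraries (adjusted p from 0.0577 to 0.142), with library totals as the only scaling (0.174), with no filter on low counts (0.0776), with the authors' factors as offsets (0.091) and with limma on their normalized signal (0.0958). COL22A1 was the second member called higher without replicate 3 of knockout JQ1 (adjusted p = 0.0465), against adjusted p = 0.0552 with it. It was also called with only the compared groups (adjusted p = 0.0455). COL22A1 had 8, 5 and 2 counts in wild type with DMSO and 13, 18 and 12 in the knockout. It passed the filter on low counts only through the knockout DMSO libraries, where it was higher. These calls are therefore no support for a rise, and no fold is given. COL7A1 in DMSO gave -0.59 log2 units, adjusted p = 0.0651, or 0.00742 without replicate 3 of knockout JQ1.

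No collagen gene passed the test of a different JQ1 response between genotypes. The interaction called 0 of 34 members with edgeR and 0 with DESeq2, where edgeR called 0.134% of all tested genes. An unadjusted edgeR p under 0.05 was found for 4 of the 34 members, beside 1817 of all 21698 tested genes. COL13A1 had the smallest p: its response in the knockout was lower by 1.21 on the log2 scale (SE 0.29, unadjusted p = 0.000812, adjusted p = 0.192). With no filter on low counts it was called (-1.22 log2 units, adjusted p = 0.013). COL1A1 (1.20 log2 units, adjusted p = 0.588), COL15A1 (0.86 log2 units, adjusted p = 0.567) and COL5A2 (-0.19 log2 units, adjusted p = 0.537) were the others. COL1A1, COL2A1 and COL6A3, called with JQ1 in wild type alone, and COL4A5, COL10A1, COL13A1 and COL24A1, called in the knockout alone with all libraries, are therefore not shown to respond differently.

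The ratio of partner chains, in CPM per kilobase within a library, sets these differences side by side and does not depend on library scaling. Over 6 pairs and 4 comparisons, 24 exact permutation tests were made; with 3 against 3 libraries the smallest two-sided p is 0.1, or 0.16 after Benjamini-Hochberg adjustment, so none could pass 0.05. The COL5A1 to COL5A2 ratio was 0.0476 ± 0.00384 in wild type with DMSO and 0.128 ± 0.0086 with JQ1, and in the knockout 0.0248 ± 0.00512 with DMSO and 0.0763 ± 0.0108 with JQ1 (SD, n = 3). It was 2.68-fold higher with JQ1 in wild type and 3.10-fold higher in the knockout, and lower in the knockout in both treatments, with no overlap between libraries. The COL9A2 to COL9A3 ratio was 0.0216 ± 0.00211, 0.00794 ± 0.0019, 0.0199 ± 0.00218 and 0.00541 ± 0.00174 in the same order, so the drug groups did not overlap and the genotypes did.

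COL4A1 and COL4A2, which share a promoter region, kept a narrow ratio: 0.435 ± 0.00423, 0.494 ± 0.0055, 0.456 ± 0.0199 and 0.498 ± 0.0147. It was higher with JQ1 by 0.18 on the log2 scale in wild type and 0.13 in the knockout without overlap, and the genotypes overlapped. In knockout JQ1 the ratios were 0.506, 0.506 and 0.481, so replicate 3, the highest in each chain, was the lowest in the ratio. It lay close to the highest knockout DMSO ratio of 0.477. The COL6A3 to COL6A1 ratio was 0.0219 ± 0.00291, 0.0119 ± 0.00269, 0.00532 ± 0.00113 and 0.00371 ± 0.000649, which is 4.14-fold lower in the knockout with DMSO and 3.19-fold lower with JQ1, without overlap. The COL6A1 to COL6A2 ratio was 0.932 ± 0.0382, 1.08 ± 0.0594, 0.923 ± 0.0704 and 1.24 ± 0.068; it was higher with JQ1 in both genotypes without overlap. For COL8A1 to COL8A2, whose chains fell together, all 4 comparisons overlapped.

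**Figure D4:**
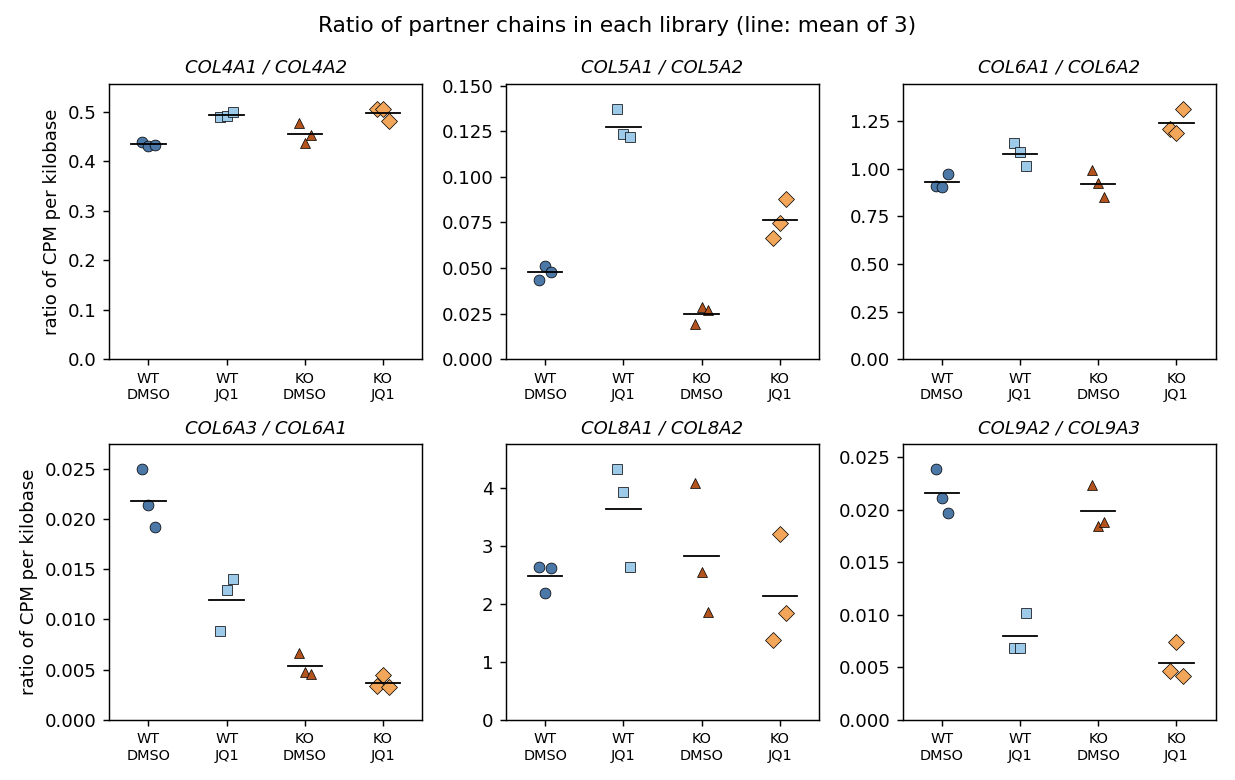
Each panel shows the ratio of 2 partner collagen genes in CPM per kilobase, with 1 point per library and a line at the mean of 3 (WT wild type, KO knockout); the axes start at 0. The COL5A1 to COL5A2 ratio is higher with JQ1 in both genotypes, the COL9A2 to COL9A3 ratio is lower, and the COL6A3 to COL6A1 ratio is lower in the knockout.

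Genes that make, fold, trim and cross-link collagen were followed as a list of 35, of which 32 were tested. TLL1, ADAMTS14 and LOXL1 were too low. This list and that of the collagen receptors below were chosen with earlier results of these data known. With JQ1, 14 rose (43.8%) and 4 fell (12.5%) in wild type, where 16.9% of all tested genes rose and 16.2% fell, and their median log2 fold change was 0.17. In the knockout 15 rose (46.9%) and 4 fell (12.5%), where 16.7% of all tested genes rose and 17.8% fell, and the median was 0.16. P4HA3, among the 32, passed the filter on low counts only through JQ1 libraries, where it was higher, so its values are no support for a rise. It had 8, 7 and 2 counts in wild type with DMSO and 24, 14 and 20 with JQ1. In the knockout it had 4, 0 and 1 with DMSO and 6, 14 and 19 with JQ1. P4HB, the beta subunit of prolyl 4-hydroxylase, was at 352, 352 and 366 CPM in wild type with DMSO and 712, 707 and 662 with JQ1. In knockout cells P4HB was at 408, 404 and 411 with DMSO and 789, 766 and 839.7 with JQ1. Its changes with JQ1 were 0.96 log2 units (SE 0.05, adjusted p = 4.26e-09) and 0.97 log2 units (SE 0.05, adjusted p = 2.8e-09). LOXL2, a lysyl oxidase that cross-links collagen, was at 89.5, 90.6 and 92.5 CPM in wild type with DMSO and 215, 211 and 191 with JQ1. In knockout cells LOXL2 was at 78.6, 78.2 and 85.9 with DMSO and 172, 179.9 and 218 with JQ1. Its changes were 1.18 log2 units (SE 0.08, adjusted p = 7.57e-08) and 1.23 log2 units (SE 0.08, adjusted p = 3.77e-08). P4HA2, a catalytic subunit of prolyl 4-hydroxylase, rose by 0.87 log2 units (SE 0.06, adjusted p = 1.35e-07) and 0.92 log2 units (SE 0.06, adjusted p = 6.99e-08). PLOD1, a lysyl hydroxylase, rose by 0.89 log2 units (SE 0.08, adjusted p = 8.44e-07) and 0.92 log2 units (SE 0.08, adjusted p = 5.09e-07). The genes that fell in both genotypes were SERPINH1, PCOLCE, LOXL4 and COLGALT2. SERPINH1, the collagen chaperone HSP47, had changes of -0.64 and -0.92, and PCOLCE, which enhances procollagen trimming, of -0.77 and -1.11.

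**Figure D5:**
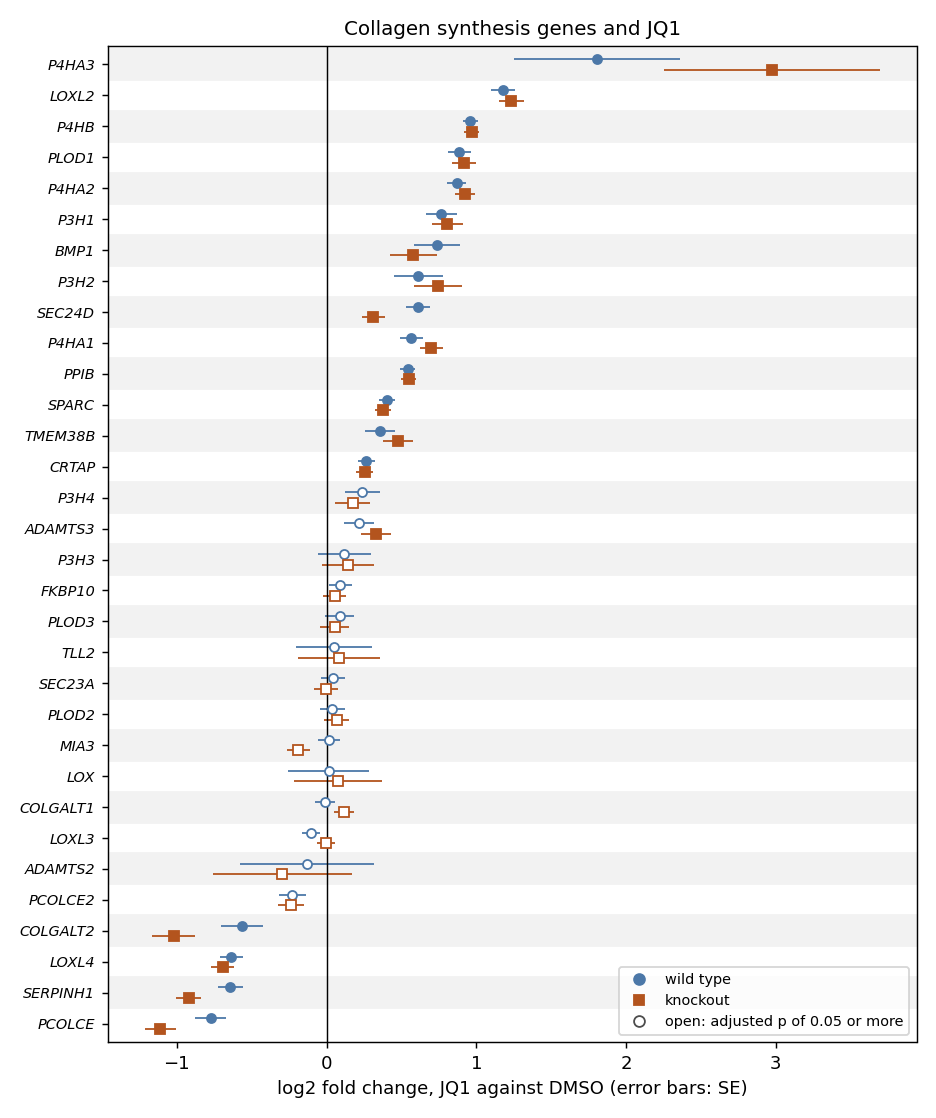
The log2 fold change with JQ1 of the 32 tested genes of collagen synthesis is plotted with its SE for wild-type cells (circles) and knockout cells (squares), ordered by the wild-type value; filled symbols have an adjusted p under 0.05. The hydroxylase genes P4HB, P4HA2 and PLOD1 and the cross-linking LOXL2 lie to the right of 0, and SERPINH1, PCOLCE, LOXL4 and COLGALT2 to the left.

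Compared with wild type, 5 of the 32 were higher (15.6%) and 1 lower (3.12%) in the knockout with DMSO, where 3.47% of all tested genes were higher and 4.44% lower. With JQ1, 6 were higher (18.8%) and 2 lower (6.25%), where 3.01% of all tested genes were higher and 5.56% lower, so the shares of lower genes were near those of all genes. With 1 library left out these ran from 2 higher and 1 lower (without replicate 1 or 2 of wild-type DMSO) to 7 higher and 2 lower (without replicate 3 of knockout JQ1) in DMSO. With JQ1 they ran from 3 higher and 2 lower without replicate 3 of wild-type JQ1 to 6 higher and 4 lower without replicate 3 of knockout JQ1. LOXL4, another lysyl oxidase, was higher by 0.54 log2 units (SE 0.08, adjusted p = 0.000433) and 0.48 log2 units (SE 0.08, adjusted p = 0.00101). CRTAP, a subunit of the prolyl 3-hydroxylase complex, was higher by 0.27 log2 units (SE 0.06, adjusted p = 0.00602) and 0.26 log2 units (SE 0.06, adjusted p = 0.00793). PPIB, a prolyl isomerase of that complex, was higher by 0.22 log2 units (SE 0.05, adjusted p = 0.0142) in DMSO and 0.22 log2 units (SE 0.05, adjusted p = 0.0116) with JQ1. LOXL3 was higher by 0.30 log2 units (SE 0.06, adjusted p = 0.00572) with JQ1 and gave 0.20 log2 units, adjusted p = 0.059 in DMSO, or 0.0124 without replicate 3 of knockout JQ1. The DMSO call of PPIB was lost without replicate 1 of knockout DMSO (adjusted p = 0.0505) or replicate 1 (0.0548) or 2 (0.0662) of wild-type DMSO, and its JQ1 call without replicate 3 of wild-type JQ1 (0.0623). MIA3, which loads procollagen into transport carriers, was lower by 0.46 log2 units (SE 0.08, adjusted p = 0.00123) and 0.67 log2 units (SE 0.08, adjusted p = 4.75e-05). MIA3 lies on chromosome 1 between MAPKAPK2 and the end of the long arm, where 0 of the collagen genes and no other gene of the list lies. No gene of this list passed the interaction test. Its unadjusted p was under 0.05 for 4 of the 32 genes, beside 1817 of all 21698 tested genes.

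Of 11 collagen receptors, all tested, 2 rose (18.2%) and 5 fell (45.5%) with JQ1 in each genotype. Of all tested genes 16.9% rose and 16.2% fell in wild type and 16.7% rose and 17.8% fell in the knockout, so the share that rose was near that of all genes. ITGA10, the alpha chain of a collagen-binding integrin, was at 35.4, 39.6 and 34.7 CPM in wild type with DMSO and 3.23, 2.08 and 2.51 with JQ1. In knockout cells ITGA10 was at 35.5, 38.97 and 40.1 with DMSO and 3.12, 3.53 and 3.17 with JQ1. It fell by 3.80 log2 units (SE 0.12, adjusted p = 5.18e-11) and 3.55 log2 units (SE 0.12, adjusted p = 6.44e-11). ITGA1, a second such chain, fell by 0.82 log2 units (SE 0.08, adjusted p = 1.55e-06) in wild type and 0.86 log2 units (SE 0.08, adjusted p = 8.31e-07) in the knockout. DDR2, a receptor kinase for fibrillar collagen, fell by 0.71 log2 units (SE 0.07, adjusted p = 1.71e-06) in wild type and 1.06 log2 units (SE 0.07, adjusted p = 2.87e-08) in the knockout. Against wild type, 4 receptors were lower in the knockout with DMSO (36.4%) and 3 with JQ1 (27.3%), where 4.44% and 5.56% of all tested genes were lower, and 0 were higher in either, where 3.47% and 3.01% of all tested genes were. ITGA11 was lower by 0.51 log2 units (SE 0.13, adjusted p = 0.0249) in DMSO and gave -0.23 log2 units, adjusted p = 0.392 with JQ1. ITGA2 was lower by 0.37 log2 units (SE 0.10, adjusted p = 0.0253) in DMSO and 0.54 log2 units (SE 0.10, adjusted p = 0.00234) with JQ1, and DDR2 by 0.25 log2 units (SE 0.07, adjusted p = 0.0333) in DMSO and 0.60 log2 units (SE 0.07, adjusted p = 4.75e-05) with JQ1. The DMSO calls rest on single libraries: without replicate 1 or 3 of knockout DMSO, or 1 or 2 of wild-type DMSO, 0 receptors were called, and without replicate 2 of knockout DMSO or 3 of wild-type DMSO 1 was. For ITGA2 in DMSO the adjusted p then ran from 0.0587 to 0.163. For ITGA11 it was above 0.05 without replicate 1 (0.0923) or 3 (0.123) of knockout DMSO, or 1 (0.085) or 2 (0.109) of wild-type DMSO.

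Some members share exonic sequence with a gene on the other strand. Whether the counting used the strand is not given in the sources used here. Reads from the shared bases may therefore not be told apart from those of that gene, and how many bases are shared was not measured. COL9A3 (4449 to 14074 counts per library) overlaps TCFL5 (735 to 1279 counts), COL19A1 (3627 to 5254) overlaps LMBRD1 (347 to 692) and COL18A1 (454 to 1234) overlaps SLC19A1 (271 to 587). The antisense genes of COL4A2 had 5 to 42 counts, beside at least 9622 for COL4A2. COL4A3 (3 to 15 counts) overlaps AC097662.1, which had as many (5 to 17).

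Members too low to be tested were COL4A6 (0 to 10 counts per library), COL20A1 and COL21A1 (0 to 7 each), COL3A1 and COL26A1 (0 to 5 each), COL1A2 (0 to 4), COL23A1 (0 to 3), COL25A1 and COL28A1 (0 to 1 each) and COL6A5 (0 in all 12 libraries). At the depth of these libraries, differences in those 10 genes were not detectable.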

How the data were processed

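Total RNA depleted of ribosomal RNA from 12 A375 samples was sequenced after directional library preparation, per the labels' protocols. Groups came from the genotype and treatment labels; sample titles call the DMSO samples untreated. The authors deposited estimated counts per gene symbol, and a normalized signal equal to the rounded count divided by a factor per gene and library, for genes with at least 10 summed counts. The submitters' processing notes name Trim Galore, cutadapt, FastQC, MultiQC, kallisto, DESeq2 and build GRCh38.p10, with no role given. The members and lists were chosen with earlier results of these data known.

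The estimated counts were rounded, since testing had been planned for whole counts. Genes passing edgeR's filterByExpr were scaled by TMM (factors 0.926 to 1.06) and fitted with a term per group in all 12 libraries (edgeR 4.0.16 quasi-likelihood test, limma 3.58.1, R 4.3.3), with Benjamini-Hochberg adjustment over 21698 genes and a threshold of 0.05. SE was derived from the log2 fold change and its F statistic, and CPM were taken over TMM-scaled totals. The tests were tried on simulated data first. Depth was 25316899 to 34594295 counts. Alternatives were DESeq2 1.42.0, other scalings, no filter, only the groups compared, a threshold of 0.01, the authors' signal with limma on log2(signal + 1), a replicate block and leaving out each library.

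Members with a group mean of at least 5 CPM were named in every library, tested members below that with group means, and untested members with their counts. From the synthesis and receptor lists, no more than 4 and 2 genes, respectively, were named per comparison, by smallest adjusted p; SERPINH1, PCOLCE and COLGALT2 were chosen after their values were seen, as were the low members given per library. Transcript lengths, exon overlaps and gene order came from GENCODE 29 by symbol, and promoters from RefSeq.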

Additional observations from a re-analysis of the deposited data

How the results depend on the processing

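Of 50 member calls over the comparisons, 38 were kept in every alternative other than a threshold of 0.01, and 0 reversed. With 1 library left out, the number of members called ran from 13 to 19 for JQ1 in wild type, 15 to 20 for JQ1 in the knockout, 6 to 12 for the knockout in DMSO, 5 to 11 for the knockout in JQ1 and 0 to 0 for the interaction; the 11 came without replicate 3 of knockout JQ1. With no filter on low counts, 1 member was called for the interaction. Scaling by library totals alone moved the median of all genes to -0.16 for JQ1 in wild type and -0.12 in the knockout, and the calls became 3 higher and 15 lower, and 6 higher and 15 lower; for the knockout they became 0 higher and 10 lower in DMSO and 0 higher and 8 lower in JQ1. The replicate block gave 16, 17, 7, 6 and 0 members called in the same order. Samples of the same number correlated by at most 0.0786 over 18 pairs, so no strong effect shared by a number was seen. That cannot tell whether samples were prepared in numbered sets. Under the block 4 calls were not made: COL2A1 (adjusted p = 0.0517) with JQ1 in wild type, COL24A1 (0.0677) with JQ1 in the knockout, and COL15A1 (0.0512) and COL19A1 (0.0601) for the knockout in DMSO. At a threshold of 0.01 the numbers were 12, 15, 6, 5 and 0. Counts of members and of list genes under the alternatives are not set against the calls of all genes in the same fits. Depth limits the genes under 1 CPM.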
